A study of Mus musculus with 267 samples.

Results

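PU1 sites gained with IL-4 are the places in C57 macrophages where a PU1 peak was present after 24 h of interleukin-4 (IL-4) and absent before it. PU1 is the label used here for PU.1, and a peak is an interval, about 200 bp wide, where chromatin immunoprecipitation with sequencing (ChIP-seq) piled up reads. Sites were chosen by the presence of peaks in these PU1 libraries, and a site counted as gained when a peak of the C57 24 h list shared no base pair with any peak of the C57 basal list. By this rule 17054 of the 90308 peaks of the 24 h list were gained, or 18.9%. The remaining 73254 peaks overlapped a basal peak and are called kept, and 12662 of the 85916 basal peaks had no 24 h peak and are called lost.

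The 267 ChIP-seq samples of the series came from bone marrow-derived macrophages (BMDMs), cells grown from the marrow of adult mice with M-CSF. Those used here were from C57BL/6J (C57) mice left untreated (basal) or given IL-4 for 1, 6 or 24 h, and from SPRET/EiJ (SPRET), NOD/ShiLtJ (NOD), BALB/cJ (BALB) and PWK/PhJ (PWK) mice, basal or after 24 h. The other 2 groups carried floxed Egr2 alleles, either alone (Egr2flfl) or with a Cre recombinase driven by the promoter of Lyz2, a gene of myeloid cells (LyzMCreEgr2flfl), and were also basal or treated for 24 h. Most groups held 2 libraries, called replicates, and the labels do not tie them to separate animals, so p-values measure the spread between these libraries alone. No EGR2 library of the floxed mice was used, so deletion of Egr2 was not checked here.

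PU.1, encoded by Spi1, is an ETS-family transcription factor that macrophages need in order to form. It binds enhancers together with other lineage factors such as C/EBP and AP-1, and opens chromatin where signal-dependent factors can then bind. IL-4 acts through the phosphorylation of STAT6, which induces further factors, among them PPARγ and EGR2, and drives the alternative activation program of macrophages.

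The first 5 of the sequences here are the gained sites of highest rank among those gained in all 4 other strains as well, and the last is the one next to Socs1, the gene of a feedback inhibitor of cytokine signaling. They are shown because STAT6-type letters became more frequent with the number of strains sharing a gain. They are the GRCm38 (mm10) reference, plus strand, from NCBI RefSeq. Capitals mark PU1-type letters (GAGGAA or GGAAGT), STAT6-type letters (TTC and GAA separated by 4 bases) and the EGR2-type letters GCGTGGG, on either strand.
Site near Agpat3, chr10:78300136-78300343: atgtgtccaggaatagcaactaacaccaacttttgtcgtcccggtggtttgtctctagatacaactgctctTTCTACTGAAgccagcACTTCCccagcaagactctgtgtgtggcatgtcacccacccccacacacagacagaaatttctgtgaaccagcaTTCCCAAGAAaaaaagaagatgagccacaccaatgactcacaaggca
Site near Nenf, chr1:191283176-191283390: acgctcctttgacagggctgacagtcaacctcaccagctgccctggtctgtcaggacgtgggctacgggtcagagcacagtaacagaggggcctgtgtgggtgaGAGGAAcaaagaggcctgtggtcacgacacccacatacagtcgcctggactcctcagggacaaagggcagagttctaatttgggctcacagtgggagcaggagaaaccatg
Site near Cmbl, chr15:31570982-31571215: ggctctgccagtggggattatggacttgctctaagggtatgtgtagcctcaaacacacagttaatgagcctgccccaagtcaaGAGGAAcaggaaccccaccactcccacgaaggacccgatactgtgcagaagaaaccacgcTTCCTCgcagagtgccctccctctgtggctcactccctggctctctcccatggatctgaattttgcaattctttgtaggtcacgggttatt
Site near Osgin1, chr8:119428951-119429159: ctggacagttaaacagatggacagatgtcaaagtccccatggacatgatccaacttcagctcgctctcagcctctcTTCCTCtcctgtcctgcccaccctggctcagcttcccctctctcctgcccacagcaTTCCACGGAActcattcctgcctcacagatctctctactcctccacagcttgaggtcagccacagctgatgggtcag
Site near Plxnc1, chr10:94989772-94989986: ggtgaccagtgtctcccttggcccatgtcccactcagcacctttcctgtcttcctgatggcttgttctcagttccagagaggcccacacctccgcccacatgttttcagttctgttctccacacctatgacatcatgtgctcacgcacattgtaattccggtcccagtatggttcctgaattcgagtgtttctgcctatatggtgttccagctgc
Site near Socs1, chr16:10785999-10786263: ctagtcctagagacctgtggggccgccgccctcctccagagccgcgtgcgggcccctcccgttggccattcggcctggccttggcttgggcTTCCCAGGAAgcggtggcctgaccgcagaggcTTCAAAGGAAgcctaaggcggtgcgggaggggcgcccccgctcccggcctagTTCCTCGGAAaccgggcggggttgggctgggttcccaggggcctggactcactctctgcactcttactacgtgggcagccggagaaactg

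The site near Agpat3 holds 1 PU1-type and 2 STAT6-type matches, the site near Osgin1 1 of each, and the site near Socs1 3 STAT6-type matches, 1 of which overlaps its PU1-type match. The site near Nenf holds 1 PU1-type match, the site near Cmbl 2, and the site near Plxnc1 none of these letters. In the GENCODE vM21 annotation the site near Agpat3 lies in an intron of Agpat3 and in an exon of the unconfirmed transcript Gm47992. The site near Nenf lies in an intron of the noncoding RNA Gm37168 and that near Cmbl in an intron of Cmbl. Sites are named by the protein-coding gene whose annotated 5′ end is nearest, and distances are from that end to the peak centre. The sites near Osgin1 and Plxnc1 are intergenic, 5069 bp and 45044 bp before the gene, and the site near Socs1 is in its promoter, 595 bp before the start.

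The same letters were counted in the 200 bases around each peak centre. PU1-type letters were in 72.3% of gained sites, against 81.7% of kept sites, 75.5% of lost sites and 52.2% of all 67742 open chromatin regions of C57. The longer match GAGGAAGT was in 13.1% of gained and 20.2% of kept sites. STAT6-type letters were more frequent at gained than at kept sites, with 9.55% of gained, 6.15% of kept and 4.60% of lost sites and 4.73% of all open regions. When the gap between TTC and GAA was 3 bases instead of 4, the shares were 6.85%, 6.59% and 5.89%. The EGR2-type letters were in 2.16% of gained, 1.55% of kept and 1.22% of lost sites, and in 3.05% of all open regions, whose median GC content was 52.5% against 46.5% at gained sites. AP-1-type letters (TGA and TCA separated by 1 base) were in 14.5%, 11.9% and 7.62%, and 16.9% of all regions. C/EBP-type letters (TTGC and AA separated by 2 bases) were in 12.3%, 11.1%, 8.73% and 11.9% in the same order. The nuclear receptor letters AGGTCA was in 12.7%, 12.02%, 11.3% and 13.96%. These shares are descriptions, and 3 gained sites on the mitochondrial chromosome were not read.

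The deposited count of a peak, the authors' measure of its height, was low at gained sites. Its median was 38 (quartiles 31 and 52, range 24 to 408), against 88 at kept and 35 at lost sites. The top score of 1000 was held by 28.3% of gained, 79.4% of kept and 21.2% of lost sites. These values belong to the libraries that chose the sites and are given without a test. The 3 gained sites of highest rank had counts of 408, 407 and 397 and are named by the protein-coding genes Plcl2, Fxyd5 and Map3k9, although transcripts of other genes (AC060761.1, Fam187b and Gm49654) start nearer. The last 3 to enter the 24 h list, nearest to Vmn2r87, Galr1 and Mterf1b, had a score of 540 and a count of 24. The last 3 kept sites, nearest to Magi2, Ssh2 and Ankrd60, had the same score and counts of 25, 24 and 24. When both lists were held to the same length, 16.7% of the 24 h list was gained, and within the better ranked 50% of the 24 h list 1743 sites were, or 3.86%.

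Gained sites lay farther from genes than kept ones. Of the gained sites 11.7% were in promoters (within 1 kb of the start of any annotated transcript), 49.0% in introns and 35.9% between genes, against 17.9%, 46.2% and 32.4% of kept sites. The median distance to the nearest protein-coding start was 27481.5 bp for gained, 21087.5 bp for kept and 21491 bp for lost sites.

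Binding of 4 other factors was compared with PU1 in the same strain. EGR2, a zinc finger factor, had a 24 h peak at 3031 gained sites (17.8%, exact 95% interval 17.2 to 18.4). STAT6, the factor that IL-4 receptors activate, had one at 3739 (21.9%, 21.3 to 22.6). The lipid-sensing nuclear receptor PPARg had one at 2821 (16.5%, 15.99 to 17.1) and the lineage factor CEBPb at 3296 (19.3%, 18.7 to 19.9). Kept sites were overlapped more often by each factor, at 21.8%, 40.0%, 28.8% and 27.9% in the same order, and lost sites less often, at 8.34%, 7.91%, 9.30% and 8.14%. The intervals cover counting error only.

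**Figure D1:**
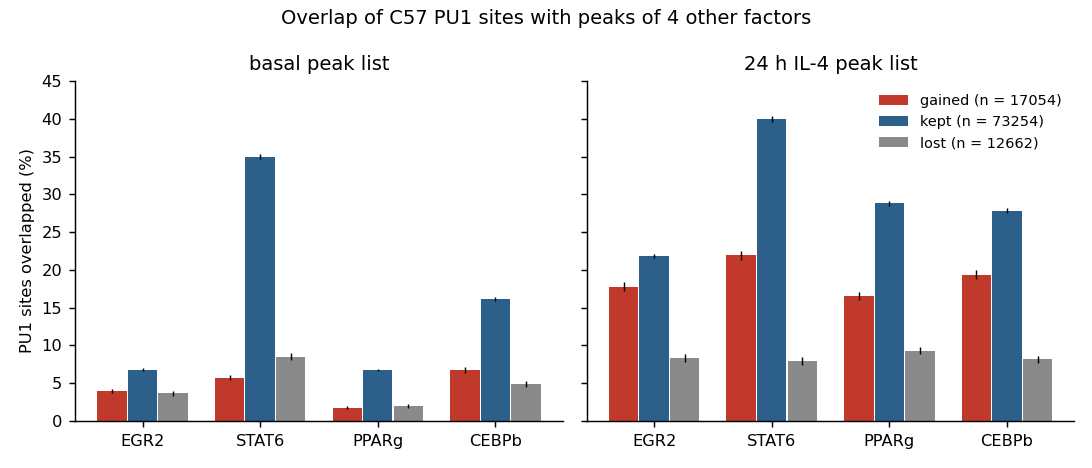
Share of C57 PU1 sites (y axis, percent) overlapped by a peak of EGR2, STAT6, PPARg or CEBPb, in basal macrophages (left) and after 24 h of IL-4 (right). Bars are gained, kept and lost sites and lines are exact 95% intervals for counting error. At gained sites the basal shares lie between 1.72% and 6.73% and the 24 h shares lie between 16.5% and 21.9%.

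Most 24 h peaks of the other factors at gained sites were new, as were most for EGR2 and PPARg at kept and lost sites. In basal macrophages EGR2 overlapped 3.93% of the sites that would gain PU1, STAT6 5.73%, PPARg 1.72% and CEBPb 6.73%. Of the 24 h peaks at gained sites, 78.5% for EGR2, 81.5% for STAT6, 90.7% for PPARg and 66.6% for CEBPb had no basal peak of the same factor. At kept sites these shares were 70.1%, 29.6%, 79.0% and 44.2%, so that STAT6 differed most between both kinds of site. At lost sites they were 58.5%, 49.1%, 83.3% and 46.1%. All 4 lists were longer at 24 h, with 29407, 39537, 39088 and 37499 peaks against 8437, 30589, 7627 and 18043 in basal. The part of list length in these shares was not tested. In the time course, EGR2 peaks overlapped 7.21% of gained sites at 1 h and 7.21% at 6 h, and STAT6 peaks 11.4% and 11.3%. The 24 h lists of EGR2 and STAT6 were longer than the earlier ones, 29407 peaks against 13562 at 1 h for EGR2 and 39537 against 24376 for STAT6.

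Most gained sites had none of the 4 factors. At 10246 of them (60.1%) no 24 h peak of any of the 4 was found, 3156 had 1, 1833 had 2, 1211 had 3 and 608 (3.57%) had all 4. Kept sites had none in 44.3% and all 4 in 7.48%. The median PU1 count of gained sites rose along this order, 35, 42, 47, 53 and 59. In the quartile of lowest count (24 to 31) EGR2 was at 7.87% and STAT6 at 8.98% of gained sites, and in the highest (53 to 408) at 35.4% and 44.9%. Kept sites in the same ranges of count had EGR2 at 5.09% and 26.1% and STAT6 at 5.64% and 49.1%. In the quartiles between, EGR2 was at 12.1% and 16.8% of gained and 7.10% and 10.04% of kept sites, and STAT6 at 13.7% and 21.4% of gained and 9.17% and 14.1% of kept sites. At like count, EGR2 was thus more frequent at gained than at kept sites in all 4 quartiles and STAT6 in all but the highest, where counts of kept sites reached 946. CEBPb was at 11.2% of gained and 7.72% of kept sites in the lowest quartile and at 31.4% and 32.97% in the highest.

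Gained sites that held a factor's letters held its peak more often. STAT6 had a peak at 45.7% of the 1629 gained sites with STAT6-type letters and at 19.4% of the other 15422. EGR2 had one at 56.9% of the 369 with GCGTGGG and at 16.9% of the rest. For CEBPb the shares were 47.3% of 2099 and 15.4%, and for PPARg at AGGTCA 26.1% of 2173 and 15.1%.

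The PU1 lists of the 4 other strains, which the rule did not use, were read at the same positions. A 24 h peak with no basal peak was found at 35.8% of gained sites in NOD, 23.4% in BALB, 11.4% in PWK and 7.32% in SPRET. At kept sites these shares were 6.55%, 3.64%, 2.71% and 2.23%, and at lost sites 17.004%, 6.73%, 3.81% and 2.73%. A basal peak was already present at 28.9% of the gained sites in NOD, 34.3% in BALB, 34.3% in PWK and 38.3% in SPRET. In PWK and SPRET, sites with the opposite pattern, basal alone, numbered more than those with a 24 h peak alone, at 12.1% and 12.2%. The lists differ in length, 99217 peaks at 24 h and 84558 in basal for NOD against 80580 and 101317 for SPRET. With each strain's lists held to equal length the 24 h shares became 28.3% in NOD, 29.05% in BALB, 17.04% in PWK and 12.4% in SPRET, so that NOD no longer stood above BALB. The shares with a basal peak alone became 6.22% in PWK and 5.66% in SPRET, below the 24 h shares, so the excess of basal-alone sites in these strains was lost at equal length.

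**Figure D2:**
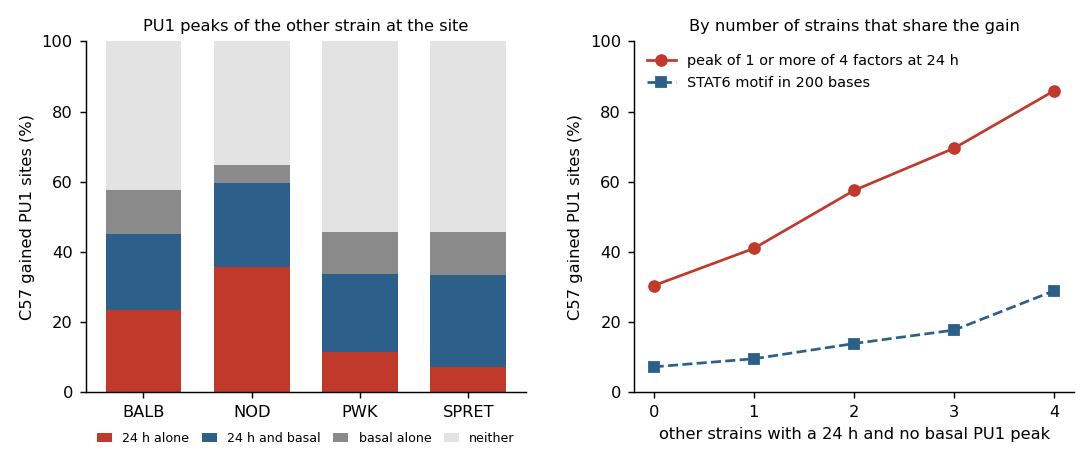
Left, C57 gained PU1 sites (y axis, percent) by the PU1 peaks of BALB, NOD, PWK and SPRET at the same position, as stacked shares. Right, share of gained sites (percent) with a 24 h peak of any of the 4 factors, and with STAT6-type letters, by the number of other strains (x axis) that also have a 24 h and no basal peak. Both shares climb from 0 to 4 strains, from 30.4% to 86.0% and from 7.22% to 28.9%.

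Gain in several strains went together with the other factors. No other strain had the gain at 8071 sites (47.3%), 1 strain had it at 5649, 2 at 2474, 3 at 746 and all 4 at 114 (0.668%). By the same measure 15 kept and 2 lost sites had it in all 4. A 24 h peak of any of the 4 factors was at 30.4% of the gained sites shared with no strain and at 86.0% of those shared with all 4, and for STAT6 alone at 14.6% and 70.2%. STAT6-type letters were in 7.22% and 28.9% of these sites, EGR2-type letters in 1.61% and 8.77%, and AP-1-type letters in 12.8% and 21.1%. The 8-letter PU1 match went the other way, from 14.6% to 1.75%. The median PU1 count rose from 35 to 73, so height and sharing moved together.

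The 5 sites of highest rank that all 4 other strains share had PU1 counts of 257 (Agpat3), 203 (Nenf), 198 (Cmbl), 196 (Osgin1) and 185 (Plxnc1). EGR2 and STAT6 had 24 h peaks at all 5, PPARg at all but the Agpat3 site, and CEBPb at the sites near Nenf and Cmbl. Agpat3 encodes an acyltransferase of phospholipid synthesis, Osgin1 an oxidative stress response protein and Plxnc1 a semaphorin receptor. H3K27ac, an acetylation of histone H3 found at active enhancers and promoters, was counted by the authors in 1000 bp around centres of open chromatin. At the Osgin1 site it read 9.5 and 15.69 normalized tags (tags scaled to a library total of 10000000) in the 2 basal libraries and 52.63 and 116.17 at 24 h. At the Nenf site it read 30.53 and 127.64 in basal and 175.71 and 377.38 at 24 h, and at the Cmbl site 2.04 and 22.82, then 6.79 and 53.82. The groups did not overlap at the first pair of sites and overlapped at Cmbl, where the log2 fold of 1.28 turned negative when basal replicate 1 (-0.205) or 24 h replicate 2 (-0.1275) was left out. The sites near Agpat3 and Plxnc1 had no C57 open chromatin region with its centre within 500 bp.

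In all, 5365 gained sites (31.5%) had such a region, in 5330 regions, against 52.3% of kept and 28.1% of lost sites. The authors' open chromatin list named 17.7% of these 5330 regions as open at 24 h alone, against 6.59% at kept sites, 12.3% at lost sites and 16.995% of all regions. More of them, 29.6%, were named as open in basal alone, against 31.6% at kept sites, 29.6% at lost sites and 30.7% of all regions. Median H3K27ac at the gained sites was 15.6 and 12.83 in the basal libraries and 22.07 and 24.28 at 24 h, so both 24 h libraries were above both basal ones. At kept sites it was 49.53 and 53.48, then 33.95 and 37.41, the opposite direction. The gained sites thus started lower and ended nearer to the kept ones.

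A region was said to have risen when its 24 h mean was at least 2.5-fold the basal mean on the scale of tags plus 1, with 16 tags in either group (8 for Pol II) and no overlap between replicates. H3K27ac rose by this rule at 680 gained-site regions (12.8%) and fell at 143 (2.68%). Over all regions 3.25% rose and 7.12% fell, and at kept sites 2.40% and 10.1%. The share that fell was 5.97% without 24 h replicate 1, 4.43% without 24 h replicate 2 and 4.17% without basal replicate 2, while the share that rose stayed between 12.01% and 16.25% whichever library was left out. After scaling each library by its median ratio over the regions, 17.1% rose and 0.919% fell, against 4.94% and 2.93% of all regions. The regions held 40.7% ± 3.51 (SD, n = 2) of all tags at 24 h against 62.5% ± 4.10 (n = 2) in basal libraries, and the median log2 fold was 0.31 at gained sites and -0.28 over all regions, or 0.61 and 0.03 after that scaling.

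Tests that use the spread between libraries gave other counts than the fold rule, which has no control of error. Limma called 0 gained-site regions for H3K27ac at an adjusted p under 0.05, and 0% of all regions higher. In either direction, 1425 of 5330 gained-site regions had an unadjusted p under 0.05, against 14904 of all 67742 regions. EdgeR called 112 higher (2.10%, against 0.387% of all regions) and DESeq2 475 (8.91%, against 2.16%). Without basal replicate 1 limma called 89 and without basal replicate 2 it called 43. Same-numbered H3K27ac libraries deviated together (correlation 0.470). With replicate number as a block (the replicate block) limma called 1316 higher and 902 lower (24.7% and 16.9%, against 8.47% and 29.6% of all regions).

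**Figure D3:**
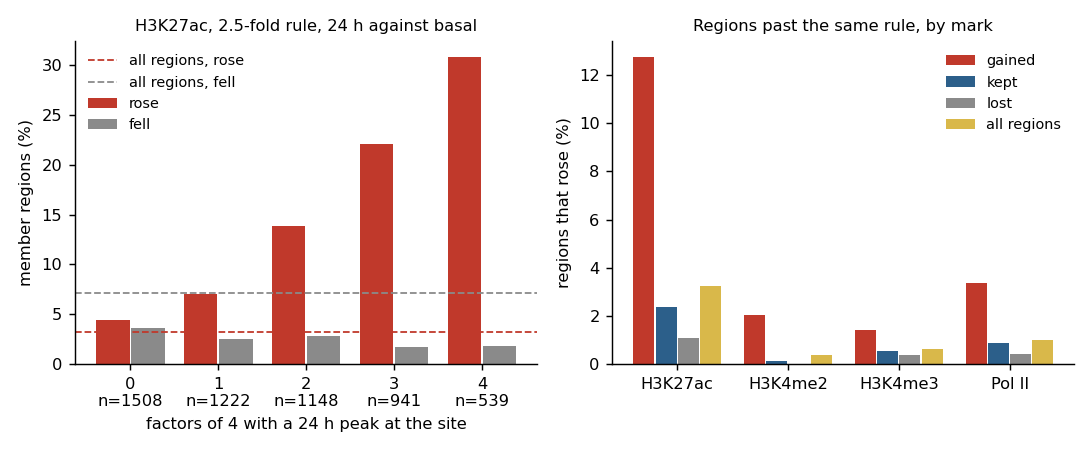
Left, share of gained-site regions (y axis, percent) where H3K27ac rose or fell at 24 h by the 2.5-fold rule, by the number of the 4 factors with a 24 h peak at the site (x axis, with the number of regions). Dashed lines are all regions. Right, share of regions that rose for each mark at gained, kept and lost sites and over all regions. The rise in H3K27ac goes from 4.44% with no factor to 30.8% with all 4.

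The share of regions with a rise in H3K27ac climbed with the number of factors at the site, 4.44%, 7.04%, 13.9%, 22.1% and 30.8% for 0 to 4. It was 22.1% with a STAT6 peak and 5.44% without one, 20.7% and 7.32% for EGR2, 19.9% and 9.27% for PPARg, and 16.7% and 10.1% for CEBPb. By the number of other strains that share the gain it went from 6.67% to 55.6%, the last over 63 regions. A region was also found more often where more factors were, at 14.7% of gained sites with no factor and 88.7% of those with all 4.

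Among the sites with all 4 factors, the 5 with the largest rise of mean H3K27ac lay near Socs1, Mad1l1, Auh, Vwf and Lrp12. The Socs1 site, printed above, read 74.63 and 29.24 tags in basal and 393.86 and 288.12 at 24 h. The Mad1l1 site (chr5:140149290-140149604, in an intron of Mad1l1, a mitotic checkpoint gene) read 4.75 and 36.37, then 235.98 and 353.09. The Vwf site (chr6:125527848-125528054, 18823 bp before the gene of von Willebrand factor) read 54.27 and 61.32, then 339.53 and 288.77. In none of these did the groups overlap, as the rule that named them asked. The Auh site (chr13:52818829-52819117, intergenic) read 108.55 and 201.79, then 451.58 and 389.85, and the Lrp12 site (chr15:40014687-40014997, 70848 bp before Lrp12 and 64 bp before the unconfirmed transcript Gm49254) read 97.02 and 42.07, then 314.92 and 247.43. Their log2 folds ran from 1.497 at Auh to 4.30 at Mad1l1, and the limma adjusted p was 0.108 at Socs1 and 0.106 at Vwf. At the gained site of highest count, near Plcl2, H3K27ac read 118.05 and 119.79 in basal and 85.73 and 104.35 at 24 h, and at the next, near Fxyd5, 471.51 and 555.47, then 190.14 and 221.18.

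The other marks of the C57 table moved less. H3K4me2, a mark of enhancers and promoters, rose by the fold rule at 110 gained-site regions (2.06%, against 0.375% of all regions) and fell at 47 (0.882%, against 1.26%). Its medians were 31.04 and 30.26 in basal and 30.97 and 20.49 at 24 h. Limma called 42 gained-site regions higher (0.788%, against 0.179% of all regions) and 3 lower (0.0563%, against 0.0576%). The median log2 fold was -0.42 at gained sites and -0.69 over all regions, and 0.24 and -0.01 after median-ratio scaling, so its direction rested on the scaling. At gained sites it ranged from -0.68 to -0.15 when single libraries were left out, and the limma calls also moved with the library left out. H3K4me3, a promoter mark, rose at 76 regions (1.43%, against 0.627%), with medians of 2.18 and 1.95 in basal and 4.28 and 3.9 at 24 h. Limma called 0 of its gained-site regions (0% of all higher), edgeR 28 and DESeq2 23. Limma's unadjusted p was under 0.05 at 1296 of 5330 gained-site regions and 13232 of all 67742, in either direction.

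RNA polymerase II (Pol II) rose by the fold rule at 179 gained-site regions (3.36%, against 1.03% of all regions). Its medians were 14.35, 11.23, 9.11 and 8.1 tags in the 4 basal libraries and 14.67, 12.29 and 11.54 in the 3 at 24 h, and these overlapped. Limma called 44 gained-site regions higher (0.826%, against 0.223% of all) and 0 lower (against 0.096%). Its unadjusted p was under 0.05 in either direction at 646 of 5330 gained-site regions and 5977 of all 67742. Same-numbered Pol II libraries deviated together, and with the replicate block limma called 72 higher and 7 lower. EdgeR called 72 higher and DESeq2 147. Without 24 h replicate 1 or 24 h replicate 2 the count was 0 higher, without basal replicate 1 it was 127, and without basal replicates 2, 3 and 4 it was 18, 14 and 10.

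Macrophage identity was read from the same H3K27ac table. All 8 macrophage markers fixed for the check (among them Adgre1, Csf1r, Cd68 and Spi1) had a region within 1 kb of the start, with summed tags of 4893.51 and 4663.36 in basal and 2079.63 and 2010.92 at 24 h. None of the 4 T cell markers had a region. The summed tags of B cell markers (2 of 4 with a region) were 86.16 and 95.55, then 31.41 and 57.76, and those of the neutrophil markers (1 of 4) 55.63 and 19.25, then 40.74 and 39.38. Erythroid and fibroblast markers (1 of 3 each) read at most 8.49. The part of the fall of the macrophage markers in the H3K27ac results was not tested.

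The time course of H3K27ac in C57 was also read at the gained sites. Its basal and 24 h libraries are the same as those read above, counted over another list of regions, so its 24 h values are not a second measurement. At 6269 regions matched to gained sites the median was 12.21 and 11.41 tags in basal, 17.78 and 8.95 at 1 h, 22.33 and 23.12 at 6 h, and 20.37 and 22.31 at 24 h. Both libraries at 6 h and at 24 h were above basal, and those at 1 h lay on either side of it. At kept sites the medians went from 43.42 and 47.77 in basal to 32.34 and 33.47 at 6 h.

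**Figure D4:**
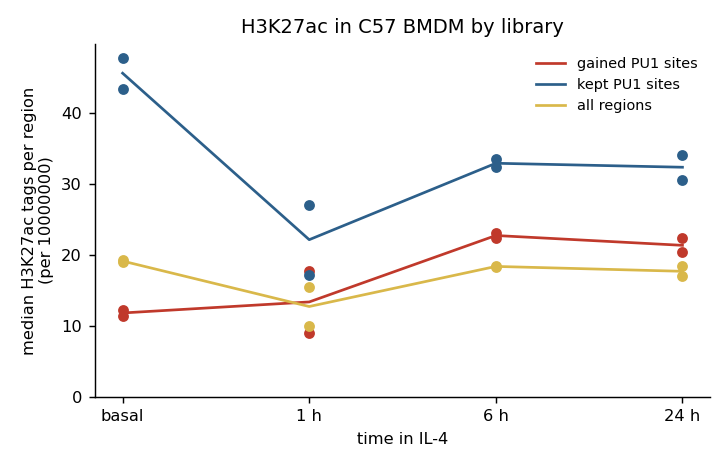
Median normalized H3K27ac tags (y axis, library total 10000000) in each library of the C57 time course (x axis) at gained PU1 sites, kept PU1 sites and all 77955 regions. Points are libraries and lines join group means. Gained sites go from 12.21 and 11.41 in basal to 22.33 and 23.12 at 6 h, while kept sites fall.

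Against basal, limma called 251 gained-site regions higher (4.00%, against 1.37% of all regions) and 248 lower (3.96%, against 8.36%) at 1 h. At 6 h it called 592 higher (9.44%, against 2.67%) and 70 lower (1.12%, against 2.46%). At 24 h it called 328 higher (5.23%, against 1.13%) and 9 lower (0.144%, against 0.327%). The 3 contrasts share the basal libraries. The 1 h replicates differed in the share of tags inside regions, 32.2% ± 16.6 (SD, n = 2). After median-ratio scaling 366 were called higher and 23 lower at 1 h (5.84% and 0.367%, against 2.02% and 0.818% of all regions). The median log2 fold went from -0.13 to 0.57, so the direction at 1 h rested on the scaling. At 6 h and 24 h the median was 0.44 and 0.38 at gained sites and -0.14 and -0.22 over all regions, and 0.61 and 0.64 against 0.04 and 0.05 after scaling.

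Single libraries moved these counts. At 1 h, 163 were higher and 1198 lower without 1 h replicate 1, and 400 and 158 without 1 h replicate 2. Without basal replicate 2 they were 27 and 10, without basal replicate 1 the lower count was 117, and without 6 h replicate 1 or 2 they were 84 and 50 or 86 and 50. At 6 h, 72 and 69 were higher and 5 and 12 lower without 6 h replicates 1 and 2, 275 were higher and 16 lower without basal replicate 2, and 124 and 118 were lower without 1 h replicates 1 and 2. At 24 h, 547 and 542 were higher and 66 and 62 lower without 1 h replicates 1 and 2, 175 and 177 without 6 h replicates 1 and 2, 147 without 24 h replicate 2 and 216 without basal replicate 2.

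EGR2 tags were read at 3134 EGR2 sites that overlap gained PU1 sites. Their medians were 19.67 and 22.83 in basal, 7.23 and 24.11 at 1 h, 19.2 and 39.22 at 6 h, and 45.1 and 32.64 at 24 h. The 24 h libraries were above the basal ones, and those at 1 h and 6 h spread widely. Limma called 0 of these sites higher at 24 h (0% of all 30675). An unadjusted limma p under 0.05, in either direction, was found at 289 of the 3134 and at 1038 of all 30675. The median log2 fold was 0.79, against 0.66 over all sites, and 0.16 against 0.02 after median-ratio scaling.

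PU1 itself was measured again in the Egr2flfl and LyzMCreEgr2flfl macrophages, at 4677 sites that the authors chose as EGR2 peaks induced by IL-4 at 24 h. Of these sites 823 overlap gained PU1 sites, so they stand for the gained sites with EGR2 and not for the rest. Median PU1 was 8.5 and 7.82 tags in basal Egr2flfl libraries and 16.28 and 16.69 at 24 h. In LyzMCreEgr2flfl it was 5.78 and 6.5 in basal and 8.91 and 8.58 at 24 h. Both 24 h libraries were above both basal ones in each genotype, and the 24 h level with Cre was near the basal level without it. At 1910 kept sites of the same table the medians were 45.05 and 45.89, then 54.83 and 56.24, in Egr2flfl, and 42.42 and 43.9, then 46.78 and 48.98, in LyzMCreEgr2flfl.

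**Figure D5:**
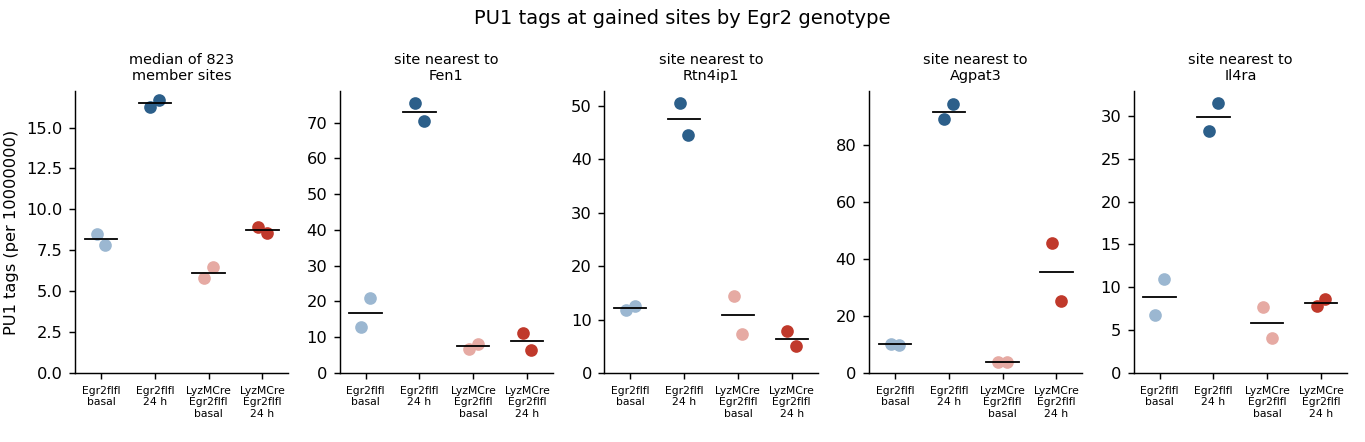
Normalized PU1 tags (y axis, library total 10000000) in the 2 libraries of each Egr2 genotype and condition (x axis), as the median over 823 gained sites and at the sites nearest to Fen1, Rtn4ip1, Agpat3 and Il4ra. Points are libraries and short lines are group means, and each panel has its own y axis from 0. The Egr2flfl libraries at 24 h are the highest in every panel.

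In Egr2flfl limma called PU1 higher after IL-4 at 171 gained sites (20.8%, against 8.19% of all 4677 sites) and lower at 0. There limma gave 381 of the 823 gained sites an unadjusted p under 0.05 in either direction, against 1129 of all sites. In LyzMCreEgr2flfl it called 46 higher (5.59%, against 2.8%). At 24 h, PU1 was lower in LyzMCreEgr2flfl than in Egr2flfl at 184 gained sites (22.4%, against 9.36%) and higher at 0. The median log2 folds were 0.87, 0.35 and -0.81, against 0.34, 0.15 and -0.33 over all sites. After median-ratio scaling the counts were 79, 27 and 123 lower with 2 higher, and the medians 0.62, 0.24 and -0.57. In basal macrophages the median genotype difference was -0.35, with 0 calls by limma. Its unadjusted p was under 0.05 at 121 of the 823 gained sites and 421 of all 4677. Without Egr2flfl 24 h replicate 1 or 2 the counts fell to 0 and 1 for IL-4 in Egr2flfl and to 0 and 0 for genotype at 24 h. Without Egr2flfl basal replicate 1 or 2 the IL-4 count was 42 and 32, and without LyzMCreEgr2flfl 24 h replicate 1 or 2 the genotype count was 56 and 104. For IL-4 in LyzMCreEgr2flfl it was 13 and 13 without Egr2flfl 24 h replicates, 24 and 26 without Egr2flfl basal replicates, and 12 and 17 without LyzMCreEgr2flfl 24 h replicates.

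The difference in response between the genotypes was also tested. Limma called it at 0 gained sites (0% of all sites), with 136 of 823 at an unadjusted p under 0.05, against 434 of all 4677. EdgeR and DESeq2 called 0, with 103 and 31 gained sites at an unadjusted p under 0.05. The median of this difference was -0.47, against -0.17 over all sites. As a count with no test, the 2 replicates rose without overlap at 602 gained sites (73.1%, against 46.8% of all sites) in Egr2flfl and at 308 (37.4%, against 28.6%) in LyzMCreEgr2flfl. At 24 h the LyzMCreEgr2flfl libraries lay below the Egr2flfl ones without overlap at 550 (66.8%, against 44.6%).

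The 3 gained sites with the lowest p for genotype at 24 h lay in introns of Myrf, Rtn4ip1 and the noncoding RNA 4930428N03Rik. At the Myrf site (chr19:10219919-10220127, named for Fen1 by its gene end, although a transcript of Tmem258 starts nearer) PU1 read 12.75 and 20.86 in basal Egr2flfl, 75.4 and 70.46 at 24 h, 6.75 and 8.13 in basal LyzMCreEgr2flfl and 11.14 and 6.56 at 24 h. At the Rtn4ip1 site (chr10:43945880-43946088) it read 11.9 and 12.52, then 50.55 and 44.5, and with Cre 14.46 and 7.32, then 7.8 and 5.05. At the third (chr14:24732270-24732489) it read 19.55 and 12.52, then 64.26 and 68.6, and with Cre 6.75 and 8.13, then 8.91 and 14.64. At each site only the Egr2flfl libraries at 24 h were high. The log2 differences were -2.95 ± 0.359 (SE; limma adjusted p = 0.00133), -2.73 ± 0.389 (0.0020) and -2.44 ± 0.349 (0.0020), n = 2 libraries per group.

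The sites named for other reasons differed in how much PU1 was present with Cre. At the Agpat3 site PU1 read 10.2 and 9.91, then 89.11 and 94.56, in Egr2flfl, and 3.86 and 4.06, then 45.67 and 25.25, in LyzMCreEgr2flfl. Limma's log2 fold with IL-4 was 3.07 in Egr2flfl and 2.82 in LyzMCreEgr2flfl, and the 24 h level differed by -1.41 (adjusted p = 0.0139). At the Osgin1 site it read 5.95 and 4.17, then 45.41 and 42.03, and with Cre 0 and 5.69, then 7.8 and 12.62. There the 24 h difference of -2.03 was not called (limma adjusted p = 0.0594), while at the Plxnc1 site it was -2.70 (0.00879). At the site 14815 bp before Il4ra, the IL-4 receptor gene, PU1 read 6.8 and 10.95, then 28.27 and 31.52, and with Cre 7.71 and 4.06, then 7.8 and 8.58. At Il4ra the 24 h difference was -1.75 (limma adjusted p = 0.0178). By contrast, at the site 5595 bp before Tlr4, an innate immune receptor gene, PU1 read 11.05 and 8.34, then 12.85 and 16.07, and with Cre 8.68 and 6.5, then 18.93 and 18.68, with the highest values in the Cre libraries. The 24 h difference was not called at Tlr4 (0.365, limma adjusted p = 0.356). Nor was it called at the sites near Angptl4 (0.642, 0.512), Egr2 (-0.465, 0.561), Tgm2 (-1.42, 0.0679), Abcg1 (-0.130, 0.902) and Auh (-0.794, 0.401). Of the listed genes with a site measured here, Il4ra alone was called.

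The other factors of the same table were read at the 823 gained sites. STAT6 medians went from 3.09 and 1.2 to 8.71 and 7.08 in Egr2flfl and from 2.23 and 1.84 to 4.12 and 2.25 in LyzMCreEgr2flfl. Limma called STAT6 higher with IL-4 in Egr2flfl at 153 (18.6%, against 11.8% of all sites), with counts of 6 and 24 without Egr2flfl 24 h replicates 1 and 2, 27 without Egr2flfl basal replicate 2, and 19 after median-ratio scaling. CEBPb went from 3.26 and 7.35 to 18.75 and 14.62 in Egr2flfl and from 2.18 and 4.12 to 4.07 and 4.29 in LyzMCreEgr2flfl. It was lower in LyzMCreEgr2flfl at 24 h at 107 sites (13.001%, against 8.25%), with 0 calls after median-ratio scaling, 0 without Egr2flfl 24 h replicate 1 or 2 and 27 and 0 without LyzMCreEgr2flfl 24 h replicates 1 and 2. DESeq2 called CEBPb lower by genotype at 2 gained sites and higher at 3, against 7 and 109 of all sites. PPARg was near 0 in basal libraries, with medians of 0.91 and 0 in Egr2flfl, and 5.12 and 11.03 at 24 h. In LyzMCreEgr2flfl its medians were 1.06 and 0, then 1.39 and 0. Limma called PPARg at 0 gained sites for IL-4 in either genotype and for genotype at 24 h (0% of all sites). Its median log2 fold with IL-4 in Egr2flfl was 1.85 at gained, 2.00 at kept and 1.66 over all sites. By genotype at 24 h the medians were -1.52, -1.36 and -1.28, so neither difference was particular to gained sites.

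H3K27ac and H3K4me2 of the genotypes were read at 959 regions matched to gained sites. H3K27ac medians went from 11.93 and 10.18 to 31.16 and 31.47 in Egr2flfl and from 7.02 and 7.85 to 12.47 and 12.19 in LyzMCreEgr2flfl. Limma called it higher with IL-4 in Egr2flfl at 402 (41.9%, against 25.6% of all regions) and lower in LyzMCreEgr2flfl at 24 h at 325 (33.9%, against 23.2%), with 9 higher. After median-ratio scaling the split of the first was 233 higher and 41 lower (24.3% and 4.28%, against 13.7% and 10.7% of all regions). That of the second was 64 higher and 177 lower (6.67% and 18.5%, against 11.5% and 10.6%). The median log2 difference by genotype went from -0.78 to -0.31 at gained sites and from -0.50 to -0.03 over all regions. Its size thus rested in part on the scaling. Without Egr2flfl 24 h replicate 1 or 2 the first count was 247 and 230 and the second 151 and 135, and without LyzMCreEgr2flfl 24 h replicate 1 the second was 206. H3K4me2 medians went from 23.43 and 23.26 to 30.07 and 36.66 in Egr2flfl and from 19.03 and 21.02 to 22.38 and 25.39 in LyzMCreEgr2flfl. Limma called it higher with IL-4 in Egr2flfl at 148 (15.4%, against 8.06%) and lower in LyzMCreEgr2flfl at 24 h at 145 (15.1%, against 8.94%). Without Egr2flfl 24 h replicate 1 or 2 these counts were 56 and 40, and 58 and 40. Without Egr2flfl basal replicate 1 or 2 the first was 89 and 76, and without LyzMCreEgr2flfl 24 h replicate 1 the second was 65.

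Gene lists were read by the sites within 50 kb of each gene's start. A site near several genes was counted for each of them, so the sums are of gene and site pairs. Over all protein-coding genes the gained sum was 24819, above the 17054 gained sites. Summed over the 26 genes of alternative activation there were 109 gained and 275 kept pairs, or 39.6 gained for every 100 kept. Of the 26 genes 25 had a gained site. The ratio was 20.3 over all protein-coding genes, of which 55.2% had one. It was 23.9 for 14 genes of lipid handling, 19.6 for 14 genes of the macrophage lineage and 13.8 for 15 inflammatory genes, and 30.95 for 9 genes named in the study, which it chose on these samples. These are descriptions of lists chosen with earlier results known.

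Several gained sites lay at the starts of alternative activation genes. At Pdcd1lg2, which encodes the checkpoint ligand PD-L2, a site with a PU1 count of 208 lay 83 bp before the start, with EGR2 and STAT6 peaks, and 12 gained sites lay within 50 kb. At Tmem26 a site lay 421 bp before the start, and the gene had 9 gained and 3 kept sites. Sites also lay 59 bp before Chil3 (a chitinase-like protein), 326 bp before the chemokine gene Ccl17, 49 bp before Flt1 (a VEGF receptor), 747 bp before Klf4 (a zinc finger factor), 727 bp after the start of Cish (an inhibitor of STAT signaling) and 274 bp after that of Pparg. Retnla, a marker of alternative activation, was the gene of the list with no gained site within 50 kb, and had 6 kept ones.

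Among lipid genes a site with all 4 factors lay 76 bp before Olr1, which encodes a scavenger receptor. In the inflammatory list Il1b, Il1a, Il6, Cxcl10 and Nos2 had no gained site. Ptgs2, the gene of a prostaglandin synthase, had 1 with all 4 factors 111 bp before its start, but a basal peak was present there in all 4 other strains. The protein-coding genes with most gained sites were Sfi1 with 19, Eif4enif1 with 18, Ang5 with 15, and Ang6 and Pdcd1lg2 with 12 each. In the same order they had 25, 21, 2, 3 and 15 kept sites. No filter for repeated or hard-to-map sequence was applied here, and its part in these counts was not tested. Sfi1 and Eif4enif1 are neighbours and share sites.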

How the data were processed

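ChIP-seq libraries of C57 BMDMs, of the 4 other strains (PU1 peak lists alone) and of the Egr2 genotypes were used. By the study's account, bowtie2 aligned reads of each strain to a genome of that strain (mm10 for C57) and MMARGE moved them to mm10, HOMER called peaks in each replicate, and IDR kept the peaks found reproducibly, so each group has a single list. Score and count of a peak were deposited by the authors. Signal tables, also deposited, hold HOMER tags per region scaled to 10000000 tags per library. The C57 and time-course sets share their basal and 24 h H3K27ac libraries. Library totals were 7796479 to 21973750 tags for the 19 C57 libraries, 11780899 to 29050468 for the time course, 5728050 to 22280181 for EGR2, and 6346277 to 19802651 and 9310823 to 22837514 for factors and histone marks of the genotypes. Such scaling does not correct for how many tags fall in regions, and deeper libraries can give longer lists. The tables held 4 value columns that matched no sample, which were left out.

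Peaks sharing 1 bp counted as overlapping. A site took the nearest region with its centre within 500 bp. Each measure was fitted with limma 3.58.1 (lmFit, eBayes with trend) in R 4.3.3 on log2(tags + 1), a pseudocount that understates folds of low regions, over all regions of a table, with Benjamini-Hochberg adjusted p under 0.05. EdgeR 4.0.16 (quasi-likelihood) and DESeq2 1.42.0 were run on whole reads recovered from the tags within 0.1 read, except for EGR2 and genotype H3K27ac, where 3 columns could not be recovered. The fold and tag minimums follow the study, which asked for the fold in H3K27ac and Pol II together. Here each mark was called alone, the H3K27ac minimum was also put on H3K4me2 and H3K4me3, and the pseudocount and the condition on replicates were added. Limma was also run on simulated reads with a common spread and no built-in difference between groups in tags inside regions. These libraries differ from that setting, so no conclusion is drawn from it. The replicate block was fitted as an alternative for every measure. Deviations of same-numbered libraries correlated at 0.118, 0.240 and 0.207 for Pol II. They correlated at 0.470, 0.287 and 0.250 for C57 H3K27ac, H3K4me2 and H3K4me3, and at 0.452 for basal and 24 h H3K27ac of the time course.

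Named sites were the 5 of highest rank gained in all 4 other strains, the 5 with all 4 factors and the largest rise of H3K27ac without overlap of replicates, the 3 of lowest p for genotype at 24 h, the nearest site of each listed gene, the genes with most sites, and both ends of the ranking. The site near Tlr4 and the Src and Spata21 sites were singled out after their values were seen. Alternatives were other overlap rules, list lengths, scalings, pseudocounts, filters, tools, the replicate block and leaving out each library. The members and gene lists were chosen with earlier results of these data known.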

Additional observations from a re-analysis of the deposited data

Results flagged for a closer look

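At 2 gained sites the H3K4me2 response to IL-4 differed between the genotypes by limma's interaction term. Near Spata21 (chr4:141088802-141089040, 588 bp after the gene's start) the difference was -4.132 on the log2 scale (SE 0.774, limma adjusted p = 0.000453, n = 2 libraries per group). H3K4me2 there read 2.7 and 1.89 tags in basal Egr2flfl, 30.07 and 28.2 at 24 h, 9.87 and 4.82 in basal LyzMCreEgr2flfl and 1.44 and 6.16 at 24 h. Near Src, a tyrosine kinase gene (chr2:157410134-157410365, 8195 bp before the gene), it was -3.829 (SE 0.844, limma adjusted p = 0.0134). The values were 1.8 and 2.51, then 26.85 and 22.56, and with Cre 6.34 and 3.07, then 2.89 and 1.54. In both, the Egr2flfl libraries rose from near 0 and the Cre libraries did not. Both calls were lost by edgeR, by DESeq2, after median-ratio scaling, and without Egr2flfl 24 h replicate 1 or 2 or LyzMCreEgr2flfl basal replicate 1, each of which gave 0 calls for this term. As reported, limma called no other gained site for the interaction among PU1, STAT6, PPARg, CEBPb, H3K27ac and H3K4me2. With the replicate block it called 4 higher and 19 lower for H3K27ac and 9 lower for STAT6, and with a pseudocount of 5 it called 1 for PU1. Outlying libraries were looked for in the 2 groups with enough libraries, and none was found.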

How the results depend on the processing

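The first alternatives changed what counted as gained. The gained share of the 24 h list was 18.1% with centres within 500 bp, 16.7% with lists of equal length and 3.86% in the better ranked 50% of the 24 h list. Under these rules, and with 100 bp of overlap, the 24 h shares with EGR2, STAT6, PPARg and CEBPb were as follows. With 100 bp they were 16.5%, 21.1%, 14.1% and 17.7%, with centres 19.5%, 23.03%, 18.7% and 21.8%, with equal length 19.6%, 24.2%, 17.9% and 20.95%, and in the better ranked 50% 46.4%, 58.5%, 36.1% and 36.7%. The shares with the gain in BALB, NOD, PWK and SPRET were 29.05%, 28.3%, 17.04% and 12.4% with equal length and 41.8%, 47.3%, 23.9% and 15.3% in the better ranked 50%. The fold rule for H3K27ac, with alternatives chosen after seeing the data, gave 7.75% risen and 0.450% fallen at 4-fold, 6.34% fallen at 2-fold and 0.919% fallen after median-ratio scaling, and 12.01% to 16.25% risen and 3.75% to 5.97% fallen without single libraries.

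Counts of C57 member regions called higher moved with the tool. DESeq2 gave 475 for H3K27ac, 78 for H3K4me2, 23 for H3K4me3 and 147 for Pol II. These were 8.91%, 1.46%, 0.432% and 2.76%, against 2.16%, 0.289%, 0.211% and 0.996% of all regions. It gave 637, 946 and 773 for the time course at 1, 6 and 24 h (10.2%, 15.1% and 12.3%, against 3.497%, 4.72% and 3.15% of all regions), and 68 lower at 1 h (1.08%, against 2.69%). EdgeR gave 112, 143, 28 and 72 for the 4 marks (2.10%, 2.68%, 0.526% and 1.35%, against 0.387%, 0.495%, 0.192% and 0.456% of all regions). It gave 395 higher and 19 lower at 1 h (6.30% and 0.303%, against 2.07% and 0.681%). Median-ratio scaling gave 113 for H3K4me2, 69 for Pol II and 23 lower at 1 h. A filter on low values gave 26 for H3K4me2 and 2 for EGR2, a pseudocount of 5 gave 166 at 1 h and 9 for EGR2, and regions within 100 bp gave 27 for Pol II.

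In the Egr2 genotypes, DESeq2 gave 38 for PU1 with IL-4 in Egr2flfl (4.62%, against 1.39% of all sites). In LyzMCreEgr2flfl it gave 18 (2.19%, against 0.963%). It gave 59 for PU1 lower by genotype and 8 for STAT6. For CEBPb by genotype it gave 2 lower and 3 higher (0.243% and 0.365%), against 7 and 109 of all sites (0.150% and 2.33%). For H3K4me2 it gave 25 with IL-4 and 23 by genotype (2.61% and 2.40%, against 1.07% and 0.984%). EdgeR gave 31 for STAT6, and for CEBPb by genotype 14 lower and 4 higher (1.70% and 0.486%, against 0.963% and 1.09% of all sites). For H3K4me2 it gave 82 and 66 (8.55% and 6.88%, against 3.59% and 3.29%). Median-ratio scaling gave 79 and 27 for PU1 with IL-4 (9.60% and 3.28%, against 3.14% and 1.58% of all sites). For STAT6 it gave 19, for CEBPb 0 and for H3K27ac 233 and 177 (24.3% and 18.5%, against 13.7% and 10.6%). For H3K4me2 the counts were 62 and 63 (6.47% and 6.57%, against 2.91% and 3.61%). A pseudocount of 5 gave 267 for PU1 with IL-4 in Egr2flfl, 1 for the PU1 interaction, 263 for STAT6 and 219 for CEBPb, and a filter on low values 89 for STAT6.

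With the replicate block limma called 1316 higher (24.7%, against 8.47% of all regions) and 902 lower (16.9%, against 29.6%) for H3K27ac, and 103 higher for H3K4me2 (1.93%, against 0.368%). For H3K4me3 it called 479 higher (8.99%, against 3.96%) and 528 lower (9.91%, against 13.1%), and for Pol II 72 higher (1.35%, against 0.415%). In the time course it called 585 higher (9.33%, against 3.82%) and 803 lower (12.8%, against 21.96%) at 1 h. At 6 h these were 1241 (19.8%, against 6.87%) and 171 (2.73%, against 6.80%), and at 24 h 956 (15.2%, against 4.28%) and 82 (1.31%, against 3.58%). It called 22 for EGR2 and 284 for STAT6. Apart from Pol II these fits rest on 2 replicate numbers, and no label says that same-numbered libraries were made together. The block also moved smaller counts of the genotype tables by more than 1.5 times, such as STAT6 lower by genotype from 1 to 65. Of the counts given in the report, it left those of PU1 by genotype within 1.5 times.

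Leaving out single libraries gave ranges of 0 to 89 (H3K27ac), 0 to 93 (H3K4me2), 0 to 0 (H3K4me3), 0 to 127 (Pol II), 27 to 400 higher and 10 to 1198 lower (1 h), 69 to 833 (6 h), 147 to 547 (24 h) and 0 to 37 (EGR2). In the genotypes they were 0 to 215, 12 to 60, 0 to 240 and 0 to 0 (PU1 with IL-4 in Egr2flfl, in LyzMCreEgr2flfl, by genotype, interaction), 6 to 164 (STAT6), 0 to 113 (CEBPb), 230 to 424 and 135 to 339 (H3K27ac), and 40 to 158 and 40 to 156 (H3K4me2). For named sites, the H3K27ac log2 fold near Cmbl ranged from -0.205 (without basal replicate 1) and -0.1275 (24 h replicate 2 left out) to 2.765, and that near Plcl2 to 0.02858 by DESeq2, 0.001827 by edgeR and 0.0158 after median-ratio scaling. The causes were not tested. Of the other values of named sites, 119 kept direction and call, 22 became significant and 6 lost significance. The median folds moved by more than the spread in 60 of 233 settings. With 2 libraries in most groups and sites of low count, small differences were not detectable.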
